A study of Drosophila melanogaster with 6 samples.

Results

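The 5 odorant receptor genes of the at4 trichoid sensillum were followed in the antennae of female *Drosophila melanogaster* after RNA interference against *Ecdysone-induced protein 93F* (*Eip93F*, E93). E93 is an ecdysone-responsive transcription factor of the pupal and adult stages. The genes were listed by name and matched by FlyBase symbol, which found all 5 among the 17698 gene identifiers that every sample's counts hold. They are *Or47b*, *Or65a*, *Or65b*, *Or65c* and *Or88a*, out of 59 genes with an odorant receptor (Or) symbol. The comparison bears on what the knockdown of E93 does to the expression of these receptors in adult antennae.

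The study had 2 groups of 3 samples, E93RNAi and Control, from flies 2 to 5 days old kept at 25 °C, with 350 females of each genotype reared for each pair of replicates. Both genotypes carried *peb*-Gal4, a driver used for olfactory sensory neurons, and UAS-Dcr2, which supplies an enzyme that strengthens RNA interference, so driven *Dcr-2* was part of every sample. The second element was either UAS-E93KK108140, the hairpin against E93, or VIE-260B, the strain without a hairpin. The sample titles and descriptions call the samples E93RNAi and Control (VDRC60100), while the genotype text of the treatment protocol attaches the hairpin to the control and VIE-260B to E93RNAi. The titles were followed here, and every direction below rests on them. The protocol names a rearing pair but no dissection or sequencing batch.

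Trichoid sensilla are slender pheromone-sensing hairs of the antenna, and at4 is the type that houses 3 different neurons under one hair. In *Drosophila* one neuron expresses *Or47b*, which responds to fatty acid-derived odours of other flies, promotes male courtship and belongs to the *fruitless*-positive receptor classes. A neighbouring neuron expresses *Or65a*, *Or65b* and *Or65c* together, and *Or65a* has been linked to the male pheromone cis-vaccenyl acetate. The last of them expresses *Or88a*, which responds to odours of both sexes, methyl esters of fatty acids among them. Each receptor works as a channel together with the co-receptor Orco.

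Totals over genes ran from 16639918 to 18400979 reads per sample, and 3 counts in a library were worth 0.163 to 0.18 CPM (counts scaled to a common library size; levels below are adjusted by trimmed mean of M-values, TMM, factors). The targeted gene, *Eip93F*, had 349, 336 and 319 CPM in E93RNAi and 369, 400 and 377 CPM in Control, with a log2 fold change of -0.19 ± 0.048 (SE) and an adjusted p of 0.0119 in edgeR's quasi-likelihood test. Its call was lost without E93RNAi replicate 3 (adjusted p = 0.0552) and without Control replicate 2 (adjusted p = 0.0564) in the same edgeR test, and reads of a hairpin carrying *Eip93F* sequence cannot be told from those of the gene. The transgene marker gene *w* had 5993 ± 234 CPM in E93RNAi and 1097 ± 19.8 CPM in Control (SD, n = 3 each). Antennal identity was checked with *Orco*, at 2861 to 2934 CPM in E93RNAi and 3273 to 3375 CPM in Control, and with the eye rhodopsin gene *ninaE*, at 1 to 5 counts in all 6 samples.

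All 5 at4 receptors fell in E93RNAi, and the groups did not overlap for any of them. 4 of the 5, *Or47b* and the *Or65* genes, were left at under 1% of their Control level. *Or88a* fell less, to 35.0% of its Control level. The call in this direction was made for 10.5% of the 9237 genes tested at an adjusted p under 0.05 in edgeR, and 17.6% of tested genes had all E93RNAi samples below all Control samples (19.9% had them all above). In these whole-antenna samples, fewer cells of a type and less RNA per cell cannot be told apart.

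**Figure D1:**
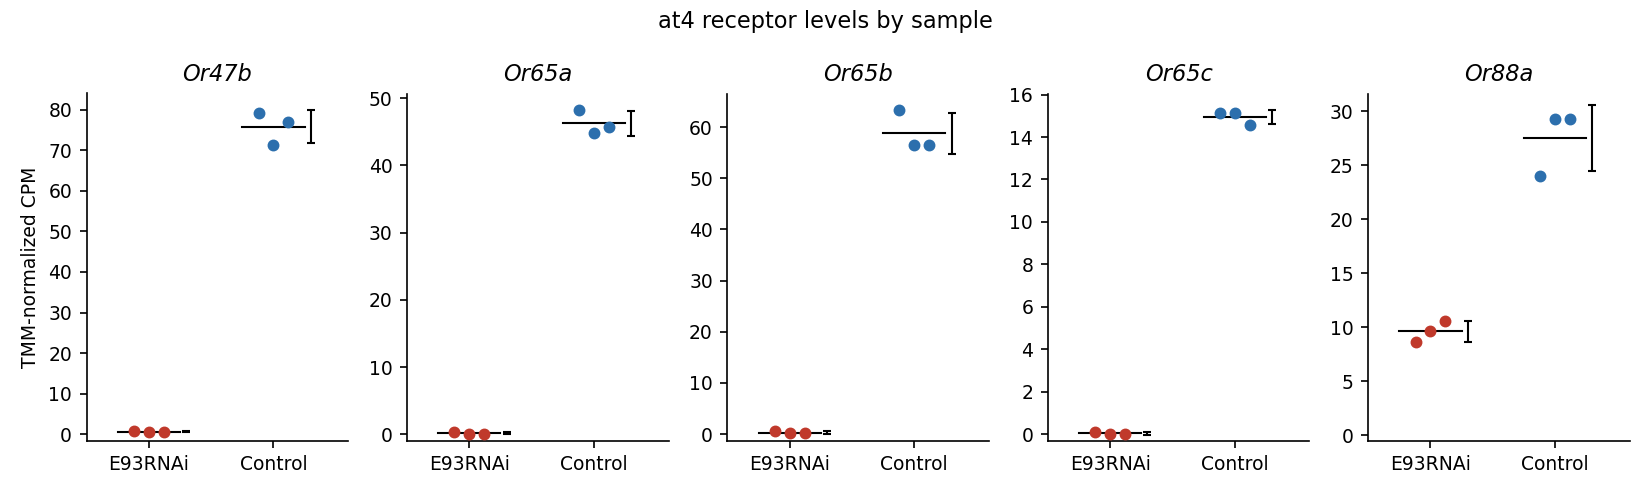
Levels of the 5 at4 receptors in each sample, in TMM-normalized CPM, with a separate linear axis for each gene. Points are samples, black lines are means and the bars beside them are SD (n = 3). *Or47b*, *Or65a*, *Or65b* and *Or65c* sit near 0 in E93RNAi, and *Or88a* keeps 8.67 to 10.6 CPM there against 24.0 to 29.3 CPM in Control.

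*Or47b* (FBgn0026385) lies on the minus strand of arm 2R, at chr2R:11319710-11321312 in the Ensembl annotation of BDGP6, with 6 exons. It had 14, 11 and 10 counts in E93RNAi and 1303, 1246 and 1406 counts in Control. Every E93RNAi library thus held some *Or47b* reads, far fewer than any Control library. Its level was 0.659 ± 0.144 CPM in E93RNAi and 75.8 ± 4.16 CPM in Control (SD, n = 3 each). The log2 fold change was -6.84 ± 0.11 (SE), with an adjusted p of 1.46e-12 in edgeR. The summed counts put E93RNAi at 0.865% of Control, with an exact 95% interval of 0.601 to 1.20% that covers counting error only.

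*Or65a* (FBgn0041625), *Or65b* (FBgn0041624) and *Or65c* (FBgn0041623) follow each other on the plus strand of arm 3L, at chr3L:6320611-6322098, chr3L:6325612-6327049 and chr3L:6327608-6329069, each with 5 exons. The gap from *Or65a* to *Or65b* is 3513 bases and that from *Or65b* to *Or65c* is 558 bases. The 3 genes are paralogs, so the split of reads between them is uncertain, and reads that align to several places were set apart by the authors' counting.

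*Or65a* had 5, 1 and 1 counts in E93RNAi and 794, 784 and 834 counts in Control. *Or65b* had 11, 3 and 3 counts in E93RNAi and 1042, 990 and 1030 counts in Control. *Or65c* had 2, 0 and 0 counts in E93RNAi and 249, 265 and 266 counts in Control. Replicate 1 was the highest E93RNAi library for all 3 genes, and the other 2 libraries were at or near the smallest countable signal.

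The log2 fold changes were -8.39 ± 0.19 for *Or65a*, -7.50 ± 0.18 for *Or65b* and -8.39 ± 0.31 for *Or65c* (SE), with edgeR adjusted p-values of 1.41e-11, 2.67e-11 and 1.50e-09. Fitted folds against so few reads depend on the small count that the model adds. The counts themselves put E93RNAi at 0.284% of Control for *Or65a* (exact 95% interval 0.114 to 0.585%), at 0.542% for *Or65b* (0.316 to 0.870%) and at 0.250% for *Or65c* (0.0303 to 0.908%). These 3 intervals overlap, so the genes of the cluster could not be ranked by the size of their fall at this depth.

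The summed cluster held 18, 4 and 4 counts in E93RNAi and 2085, 2039 and 2130 counts in Control. Treated as 1 feature, the cluster fell by 7.92 on the log2 scale, and E93RNAi stood at 0.406% of Control (0.265 to 0.596%). Without E93RNAi replicate 1, the fitted log2 fold changes were -9.54 for *Or65a*, -8.42 for *Or65b* and -11.05 for *Or65c*, whose 2 remaining libraries have no reads.

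Within the cluster, *Or65b* gave 65.4% of the reads in E93RNAi (exact 95% interval 44.3 to 82.8%, from 26 reads) and 49.0% in Control (47.7 to 50.2%, from 6254 reads). *Or65a* gave 26.9% in E93RNAi (11.6 to 47.8%) and 38.6% in Control (37.4 to 39.8%). *Or65c* gave 7.69% in E93RNAi (0.946 to 25.1%) and 12.5% in Control (11.7 to 13.3%). With 26 reads left, no change in the make-up of the cluster was detectable for any of its genes.

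*Or88a* (FBgn0038203) lies on the plus strand of arm 3R, at chr3R:14109445-14110823, with 4 exons. It had 148, 173 and 195 counts in E93RNAi and 395, 512 and 534 counts in Control. The highest E93RNAi library was far below the lowest Control library, yet well above the level of the other at4 receptors. Its level was 9.63 ± 0.953 CPM in E93RNAi and 27.5 ± 3.02 CPM in Control (SD, n = 3 each). The log2 fold change was -1.51 ± 0.1 (SE), a 2.85-fold fall, with an adjusted p of 3.35e-07 in edgeR. E93RNAi stood at 35.0% of Control by summed counts (exact 95% interval 31.6 to 38.7%).

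An annotated antisense gene, *asRNA:CR44237*, covers 1036 of the exon bases of *Or88a*, which is 85.9% of them. It had 1, 8 and 6 counts in E93RNAi and 1, 2 and 5 counts in Control, too few to be tested. The deposited counts keep strands apart, as 13 of 132 genes wholly covered by exons on the opposite strand averaged at least 100 counts, while all 364 genes wholly covered on the same strand averaged under 1 count. No annotated gene overlaps *Or47b* or an *Or65* gene.

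**Figure D2:**
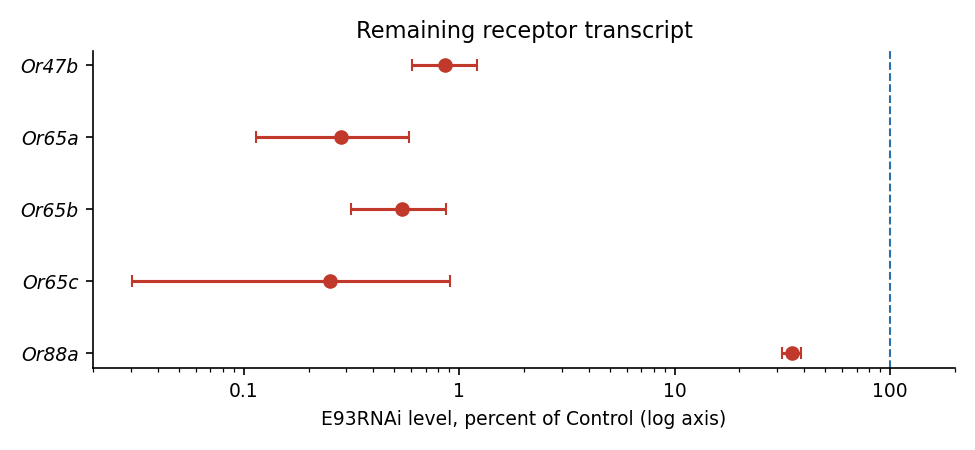
Level of each at4 receptor in E93RNAi as a percent of its Control level, from summed counts scaled by library size, on a log axis. Bars are exact 95% intervals for counting error, and the dashed line marks Control. *Or47b* and the *Or65* genes lie between 0.250% and 0.865%, and *Or88a* lies at 35.0%.

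The receptors of one sensillum thus differed in the size of their fall. The log2 ratio of *Or88a* to *Or47b* counts was 3.36, 3.92 and 4.22 in E93RNAi and -1.72, -1.28 and -1.40 in Control. *Or88a* was the more abundant of the pair in every E93RNAi sample and the less abundant in every Control sample. The mean ratio was higher by 5.30 in E93RNAi (exact permutation test, two-sided p = 0.1, the smallest that 3 samples against 3 allow).

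The order of the receptors by level changed with it. Per kilobase of exon, *Or88a* led in E93RNAi with 7.99 ± 0.790 CPM per kb, followed by *Or47b* with 0.532 ± 0.116, *Or65b* with 0.266 ± 0.227, *Or65a* with 0.107 ± 0.109 and *Or65c* with 0.0317 ± 0.0548 CPM per kb (SD, n = 3). Below *Or88a*, the samples of each receptor overlapped those of the next in E93RNAi, so neighbours in that order are not set apart there. Further apart in it, every *Or47b* sample lay above every *Or65a* and *Or65c* sample. Every *Or65b* sample also lay above every *Or65c* sample, but at the closest by 3 counts against 2. That is too few reads to set these paralogs apart. In Control the order was *Or47b* with 61.2 ± 3.36 CPM per kb, *Or65b* with 48.2 ± 3.25, *Or65a* with 36.9 ± 1.45, *Or88a* with 22.8 ± 2.504 and *Or65c* with 12.1 ± 0.267 CPM per kb (SD, n = 3). No neighbours in the Control order overlapped in any sample.

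Among the 42 Or genes that could be tested, *Or47b* ranked 37 by level per kb in E93RNAi and 7 in Control. *Or65b* ranked 40 in E93RNAi and 12 in Control, *Or65a* 41 and 18, and *Or65c* 42 and 31. *Or88a* ranked 27 in E93RNAi and 24 in Control. Of the receptors above it in Control, *Or47b*, *Or65b*, *Or65a* and the basiconic receptor *Or85b* ranked below it in E93RNAi. The small shift in rank therefore does not measure the fall of *Or88a* itself.

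Together the at4 receptors gave 0.556%, 0.546% and 0.577% of the reads of all Or genes, *Orco* left out, in E93RNAi and 10.29%, 10.08% and 10.03% in Control. With *Orco* counted in, the share was 0.224% ± 0.0091 in E93RNAi and 4.05% ± 0.112 in Control (SD, n = 3 each). *Or88a* supplied 89.2% ± 6.06 of these at4 reads in E93RNAi and 12.3% ± 1.66 in Control (SD, n = 3 each). The remaining Or genes summed to 1887, 1915 and 1951 CPM in E93RNAi and 2005, 1935 and 2001 CPM in Control, and these groups overlapped. The mean Or total was 1928 ± 32.7 CPM in E93RNAi and 2204 ± 45.2 CPM in Control, of which the at4 receptors gave 10.8 ± 0.468 CPM in E93RNAi and 223 ± 6.58 CPM in Control (SD, n = 3 each).

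Across all tested genes, falls that were called and reached 6 or more in log2 units numbered 10, and 4 of these were at4 receptors. These fitted folds depend on the small count that the model adds and do not rank the genes. The other six were *hec*, *Ir84a*, *Or85b*, *CG15580*, *Sdic2* and *Ir92a*, and they are given because they complete this count. *CG15580* and *Sdic2* had at most 23 counts in any Control library and 0 in E93RNAi.

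Other trichoid and intermediate sensilla did not share the direction as a group. Of 7 such receptors all were tested, and 1 fell, 5 rose and 1 did not pass, where 13.8% of all tested genes were called higher, 10.5% lower and 24.3% in either direction. The list had a median log2 fold change of 0.39 against 0.00028 over all tested genes and -7.50 over the at4 receptors. *Or67d*, the cis-vaccenyl acetate receptor of at1 sensilla and another *fruitless*-positive class, had 58.9, 67.0 and 58.5 CPM in E93RNAi and 49.8, 43.5 and 47.7 CPM in Control. It rose by 0.39 ± 0.066 (SE, adjusted p = 0.000874, edgeR).

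*Or83c*, a farnesol receptor, was the exception, with 1.11, 0.503 and 0.488 CPM in E93RNAi and 20.7, 21.1 and 22.8 CPM in Control (log2 fold change -4.94 ± 0.18, adjusted p = 1.43e-09, edgeR). *Or23a*, expressed in the neuron beside it, rose by 0.40 (adjusted p = 0.000297, edgeR). So a strong fall of one receptor stood beside a rise of its neighbour in this sensillum, and beside the smaller fall of *Or88a* in at4. Further rises were those of *Or19a* (2.92), its near-identical copy *Or19b* (0.82) and *Or43a* (0.38), all log2 fold changes with edgeR adjusted p-values of at most 0.000106, where the split of reads between the 2 *Or19* copies is uncertain. *Or2a* was at -0.02 ± 0.11 (SE, adjusted p = 0.933, edgeR).

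**Figure D3:**
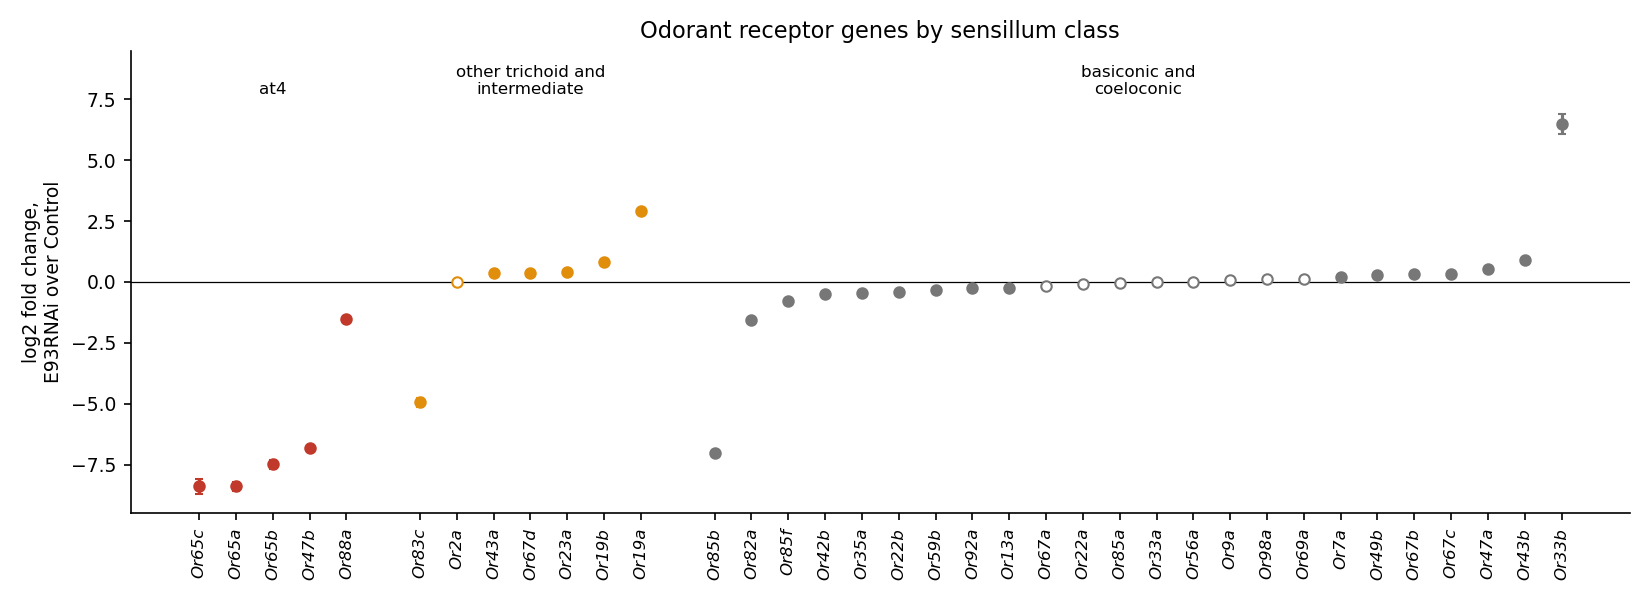
Log2 fold change (E93RNAi over Control) of each tested Or gene in the fixed sensillum lists, with SE from the edgeR fit. Filled points passed an adjusted p under 0.05 and open points did not. All 5 at4 receptors lie below 0, while 5 of 7 other trichoid and intermediate receptors lie above it past the threshold. *Or33b*, with at most 2 counts in a Control library, has a fitted value that depends on the small count the model adds.

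Of the 24 tested receptors of basiconic and coeloconic sensilla, 7 rose and 9 fell, where 13.8% of all tested genes were called higher and 10.5% lower. The median log2 fold change of these receptors was -0.02. 2 of the rises were not stable. *Or7a* (0.19, adjusted p = 0.0347, edgeR) lost its call with DESeq2 and without E93RNAi replicate 2, E93RNAi replicate 3, Control replicate 1 or Control replicate 2 (0.0783 to 0.155). *Or49b* (0.30, adjusted p = 0.0198, edgeR) lost it without E93RNAi replicate 1, Control replicate 2 or Control replicate 3 (0.0589 to 0.082). *Or85b*, a receptor of ab3 sensilla, came closest to the at4 pattern, with 10, 13 and 8 counts in E93RNAi and 1309, 1274 and 1418 counts in Control. *Or82a*, the geranyl acetate receptor of ab5 sensilla, fell by 1.58 ± 0.090 in log2 units (SE), with an edgeR adjusted p of 8.42e-08, about as far as *Or88a*.

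Genes with a profile like that of the members were sought over all 6 samples, by the Euclidean distance between log2 CPM values centred on each gene's mean. For *Or47b* and each of the *Or65* genes the same 5 genes came nearest outside the members, in varying order. They were *hec*, *Or85b*, *Ir84a*, *Ir92a* and *Dh31*. For *Or47b* the nearest was *Or85b* at a distance of 0.51, about the distance of *Or47b* to *Or65c* (0.52), and for *Or65c* it was *hec* at 0.57.

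*Ir84a* encodes an ionotropic receptor for phenylacetic acid in *fruitless*-positive neurons of coeloconic sensilla, and it had 2, 5 and 1 counts in E93RNAi and 608, 723 and 702 counts in Control. *hec*, a G protein-coupled receptor gene named for a male courtship phenotype, had 2, 1 and 0 counts in E93RNAi and 347, 360 and 367 counts in Control. *Ir92a*, an amine and ammonia receptor, had 7, 4 and 7 counts in E93RNAi and 580, 590 and 656 counts in Control. *Dh31*, a neuropeptide gene, had 6, 4 and 3 counts in E93RNAi and 200, 205 and 190 counts in Control. In each of these genes, as in *Or47b* and the *Or65* genes, no E93RNAi library held more than 14 counts.

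*Or88a* had other nearest genes. *Hr38*, an orphan nuclear receptor, was closest at a distance of 0.26, with 182, 189 and 200 counts in E93RNAi and 481, 608 and 554 counts in Control. The next were *Obp99d* (0.32), *CG4546* (0.36), *CG11000* (0.41) and *slow* (0.43), whose log2 fold changes were -1.28 to -1.57. *Or88a* itself lay 6.32 from *Or47b* and 7.67 from *Or65a* on this scale.

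The partners of pheromone detection had smaller fold changes than the at4 receptors. Whole-antenna counts do not tell what part of each partner's RNA came from at4 sensilla. The difference in size therefore does not measure how the partners changed there. Of 12 genes tested, 2 rose, 4 fell and 6 did not pass, with a median log2 fold change of 0.01. Over all tested genes, 13.8% were called higher and 10.5% lower. *fru*, the sex-determination transcription factor gene that marks *Or47b* neurons, fell most, with 73.5, 80.4 and 75.6 CPM in E93RNAi and 124, 145 and 134 CPM in Control. It fell by 0.81 ± 0.059 in log2 units (SE), with an adjusted p of 7.55e-07 in edgeR. Bulk counts do not tell which *fru* transcripts or cells were concerned.

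*Snmp1*, the CD36-family membrane protein needed for lipid pheromone responses, fell by 0.37 ± 0.053 in log2 units (edgeR adjusted p = 0.000235), to 1481 ± 61.1 CPM in E93RNAi against 1909 ± 113 CPM in Control (SD, n = 3 each). *Orco* fell by 0.20 ± 0.041 (adjusted p = 0.00357) and *ATP8B*, a lipid flippase of pheromone-sensing neurons, fell by 0.21 ± 0.046, also in edgeR (adjusted p = 0.00487). The 4 partners that fell thus did so by less than any at4 receptor.

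*lush*, which encodes a pheromone-binding protein secreted by trichoid support cells, rose by 0.23 ± 0.045 (adjusted p = 0.00238, edgeR). *Obp83a*, a binding protein of the same cells, rose by 0.21 ± 0.045 (adjusted p = 0.00408, edgeR). *Obp83b* had a log2 fold change of 0.14 ± 0.051 (adjusted p = 0.0741, edgeR), and passed with library totals, with DESeq2, with the replicate block (adjusted p = 0.0163) and without Control replicate 1 (adjusted p = 0.0308).

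*ppk25*, a channel subunit gene reported in *Or47b* neurons, had 35.7, 30.1 and 31.6 CPM in E93RNAi and 32.7, 30.6 and 28.4 CPM in Control. Its groups overlapped, and the log2 difference was 0.09 ± 0.076 (SE), with an edgeR adjusted p of 0.472. This gene is not restricted to *Or47b* neurons by anything in these data. *dsx*, *ppk23*, *Shal* and *Calx* had log2 fold changes from -0.08 to 0.23 and did not pass.

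**Figure D4:**
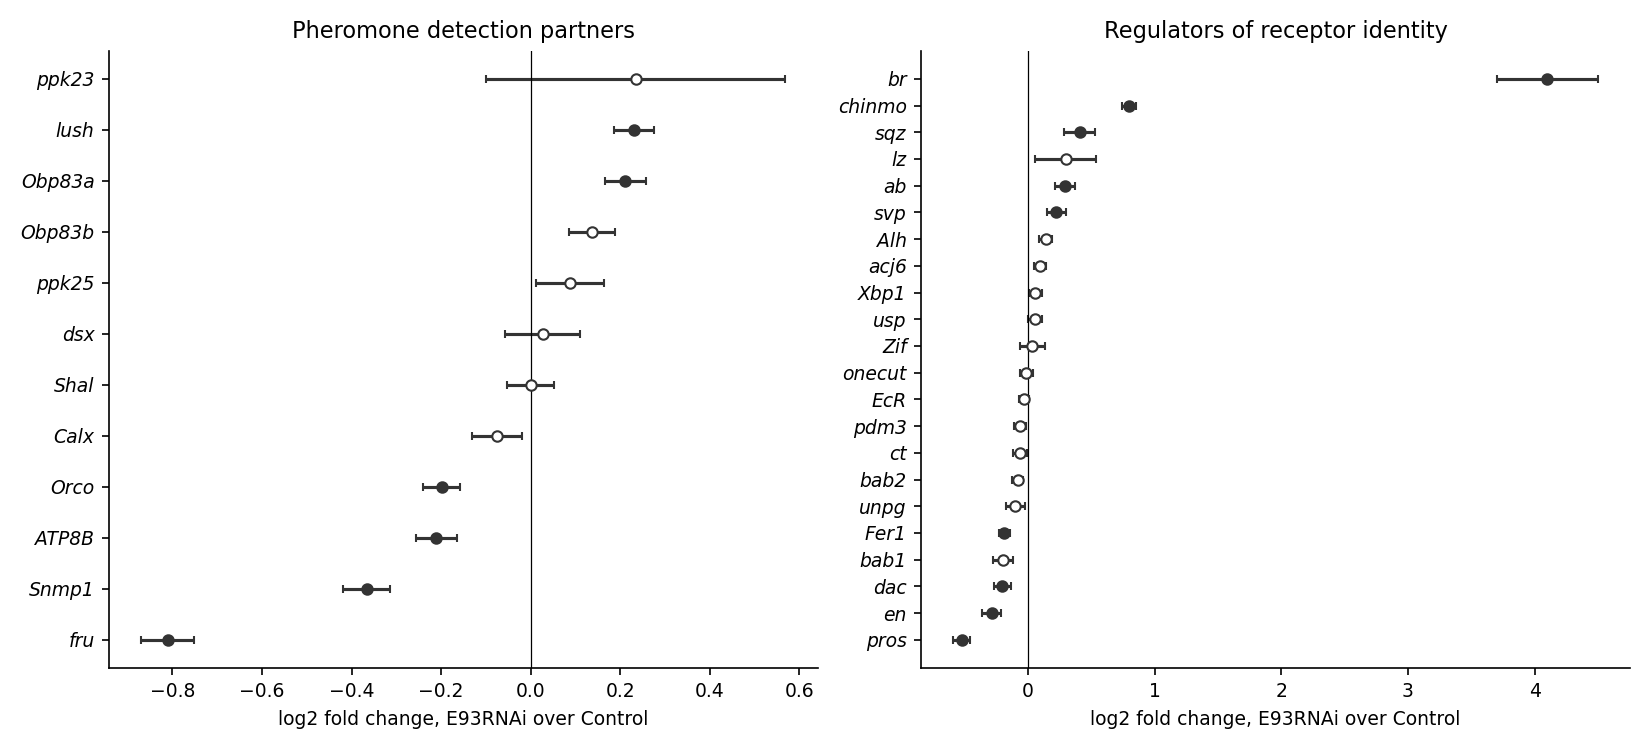
Log2 fold changes (E93RNAi over Control) with SE from the edgeR fit for the tested genes of 2 fixed lists, pheromone detection partners and regulators of receptor identity. Filled points passed an adjusted p under 0.05. The left axis spans under 1 unit in either direction, so *fru* at -0.81 changed less than *Or88a* at -1.51, and *br* stands apart in the right panel at 4.10.

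Of 26 listed regulators of sensillum and receptor identity, 22 were tested, and 5 rose, 4 fell and 13 did not pass (median log2 fold change 0.01). The shares over all tested genes were 13.8% higher and 10.5% lower. *amos*, the proneural gene of trichoid and basiconic sensilla, acts in development and had at most 3 counts in any sample, so it was not tested. *acj6* and *pdm3*, POU factors that select receptor genes, had log2 fold changes of 0.10 ± 0.044 and -0.06 ± 0.045 and did not pass (SE, adjusted p = 0.144 and 0.394, edgeR). *onecut*, also on this list, was at -0.01 ± 0.050 (adjusted p = 0.893, edgeR).

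The largest shift was that of *br*, which encodes the Broad factors of the pupal stage, with 7.44, 12.5 and 9.98 CPM in E93RNAi and 1.34, 0.171 and 0.274 CPM in Control. It rose by 4.10 ± 0.40 in log2 units (SE), with an edgeR adjusted p of 9.46e-06, and the Control libraries differed several-fold among themselves. *chinmo*, a temporal identity factor of young stages, rose to 116 ± 6.58 CPM in E93RNAi against 66.7 ± 3.20 CPM in Control (SD, n = 3 each; log2 fold change 0.80 ± 0.053 SE, adjusted p = 3.26e-07, edgeR). *pros*, a homeodomain factor, fell by 0.52 ± 0.065 (adjusted p = 7.4e-05, edgeR), and *Fer1*, reported to act on receptor expression, fell by 0.19 ± 0.042 (adjusted p = 0.0062, edgeR).

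The calls of the other five regulators were small, and each was lost in some alternatives. *en* fell by 0.28 (adjusted p = 0.0134, edgeR), but not past the threshold without Control replicate 3 (0.0731). *ab* rose by 0.29 (adjusted p = 0.0193, edgeR), with 0.0672, 0.0569 and 0.0662 without E93RNAi replicate 1, E93RNAi replicate 2 and Control replicate 1 in turn. *sqz* rose by 0.41 (adjusted p = 0.0277, edgeR), with 0.101, 0.0844 and 0.0935 without E93RNAi replicate 2, E93RNAi replicate 3 and Control replicate 1. *dac* fell by 0.20 (adjusted p = 0.0474, edgeR), a call lost on leaving out any one sample but Control replicate 1 (0.0709 to 0.197), and with all samples kept under library totals, DESeq2 and limma voom. *svp* rose by 0.22 (adjusted p = 0.0482, edgeR), a call lost on leaving out any one of the 6 samples (0.0748 to 0.129), with the replicate block (0.0549) and under 5 other settings, DESeq2 and limma voom among them.

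The genes beside the receptor loci were examined to see whether the falls extended along the chromosome. Next to *Or47b*, *nompA* lies 1033 bases away on the same strand, downstream of the receptor, and encodes an extracellular protein that links mechanosensory dendrites to the cuticle. It had 1068, 1316 and 1276 counts in E93RNAi and 123, 127 and 130 counts in Control. It thus rose by 3.23 ± 0.080 in log2 units (SE; edgeR adjusted p = 3.11e-11) beside a receptor gene that fell by 6.84.

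On the other side of *Or47b*, *sha*, a gene of cuticular hair formation, fell by 0.75 ± 0.17 (SE, adjusted p = 0.00549, edgeR), with 44 to 54 counts in E93RNAi and 79 to 85 counts in Control. *CG7745*, 9.88 kb from the receptor, was at 0.10 ± 0.11 (SE, adjusted p = 0.605, edgeR). *CG43114*, *lambdaTry* and *kappaTry* had at most 2 counts in any sample.

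The *Or65* cluster had a single tested neighbour, *CG13300*, which ends 254 bases beyond *Or65c* on the opposite strand. It had 23, 40 and 32 counts in E93RNAi and 26, 38 and 32 counts in Control, and the groups overlapped (log2 fold change -0.05 ± 0.25 SE, adjusted p = 0.918, edgeR). *Sfp65A*, *lncRNA:CR45113*, *lncRNA:CR45114*, *lncRNA:CR45420* and *lncRNA:CR45419*, the other five nearest genes, had no counts in any sample.

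Around *Or88a*, *CG12402* (1.12 kb away) and *Abi* (8.44 kb away) had log2 fold changes of -0.04 ± 0.074 and -0.07 ± 0.046 (SE) and did not pass. *PK1-R*, a neuropeptide receptor gene, fell by 0.34 ± 0.067 (adjusted p = 0.00219, edgeR) and *Kif19A*, a kinesin gene, rose by 0.31 ± 0.056 (adjusted p = 0.00141, edgeR). *CG14357* had 1 or 2 counts in each sample, and *lncRNA:CR46531* was not analysed here. No tested neighbour of any at4 locus fell as far as the receptor beside it. This does not settle whether the falls extended along the chromosome. Genes without reads cannot show a fall, and whole-antenna counts do not tell whether at4 neurons express the tested neighbours.

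**Figure D5:**
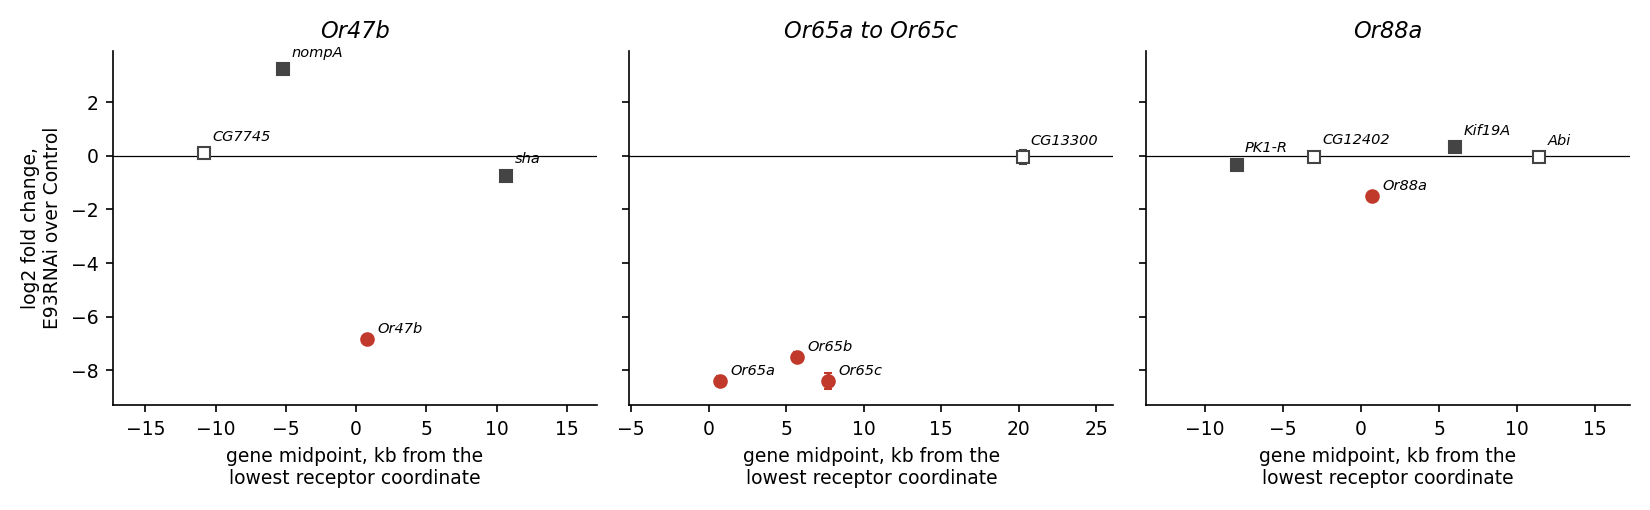
Log2 fold changes (E93RNAi over Control, with SE from the edgeR fit) of the at4 receptors (red circles) and of their tested neighbours among the 3 nearest genes on each side (grey squares, filled where the adjusted p was under 0.05), against the distance of each gene's midpoint from the lowest coordinate of the receptor or cluster. *nompA* stands at 3.23 beside *Or47b* at -6.84, and *CG13300* stands at -0.05 beside the *Or65* cluster.

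Markers of the cells that the tissue holds were set beside these falls. The counts for all marker lists stand beside 13.8% of all tested genes called higher and 10.5% lower. Of 11 pan-neuronal genes 3 fell, none rose and 8 did not pass, and their summed level was 4397 to 4957 CPM in E93RNAi and 4681 to 5155 CPM in Control, which overlap. Of 7 genes listed for trichoid support cells 4 rose and none fell. Their sum was 29673 to 31846 CPM in E93RNAi and 25438 to 26203 CPM in Control. *Obp28a* rose most, from a mean of 3028 CPM in Control to 5878 CPM in E93RNAi (log2 fold change 0.96). *Snmp2*, *lush* and *Obp83a* rose by 0.53, 0.23 and 0.21 in log2 units. *Obp83b*, *Obp69a* and *Obp19a*, at 0.14, 0.04 and -0.14, did not pass. *Obp19a* was called lower with DESeq2 and without a filter on low counts. It was also called lower with the replicate block and without E93RNAi replicate 1 (adjusted p = 0.0205 and 0.0166, edgeR). The sum thus does not stand for a rise shared by the whole list. Of 6 tested glial genes 5 rose and 1 fell, and the sum, which is mostly *Gs2*, was 2946 to 3043 CPM in E93RNAi and 3189 to 3293 CPM in Control.

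Of 4 tested genes of Johnston's organ, the hearing organ of the antenna, 1 rose and 1 fell. The list's sum, which is mostly *Cam* and *btv*, was 939 to 1029 CPM in E93RNAi and 1031 to 1049 CPM in Control. The rise was that of *nompC*, at 51.4 ± 5.65 CPM in E93RNAi and 7.87 ± 0.776 CPM in Control (SD, n = 3 each). The fall was that of *Cam* (adjusted p = 0.0243, edgeR), lost without E93RNAi replicate 2, E93RNAi replicate 3, Control replicate 1 or Control replicate 3 (0.0633 to 0.0878). Muscle genes, with 2 of 3 tested higher, summed to 5.92 to 24.5 CPM in E93RNAi and 4.11 to 5.84 CPM in Control. One of these calls, *Mhc* (adjusted p = 0.018, edgeR), was lost with DESeq2, with limma voom and without E93RNAi replicate 3 (0.0695), Control replicate 2 (0.0571) or Control replicate 3 (0.0586), and it had 205, 22 and 222 counts in E93RNAi and 42, 11 and 32 counts in Control. Hemocyte genes, with 1 of 4 tested higher, summed to 29.5 to 39.9 CPM in E93RNAi and 22.8 to 27.0 CPM in Control. The rise of this sum was that of *Pxn*, from a mean of 6.83 CPM in Control to 18.9 CPM in E93RNAi. *Hml*, *NimC1* and *srp*, at log2 fold changes of -0.26, -0.18 and -0.03, did not pass. *Hml* was called lower without E93RNAi replicate 1 (adjusted p = 0.00391, edgeR). Fat body sums, mostly of *FASN1* and *to*, overlapped, at 2380 to 2883 CPM in E93RNAi and 2474 to 2809 CPM in Control. Of 5 tested fat body genes, 1 was called higher and 1 lower. The higher one, *Yp3* (adjusted p = 0.0379, edgeR), lost its call with DESeq2, with limma voom and without E93RNAi replicate 2 (0.16), E93RNAi replicate 3 (0.0814), Control replicate 1 (0.132) or Control replicate 2 (0.103). Eye genes, with 3 higher and 1 lower of 5 tested, summed to 289 to 312 CPM in E93RNAi and 329 to 358 CPM in Control. That sum is mostly *norpA*, the 1 that was lower. Of the listed markers too low to be tested, *Lsp2*, *Fbp1* and *Fbp2* (fat body), *He* (hemocytes) and *Act88F* (muscle) had at most 3 counts in any sample. Other untested muscle genes had more. *up* had 27, 4 and 43 counts in E93RNAi and 4, 8 and 8 in Control. *wupA* had 15, 3 and 23 counts in E93RNAi and 3, 4 and 1 in Control. *Act57B* had 8, 5 and 15 counts in E93RNAi and 10, 2 and 6 in Control. The fat body gene *Yp2*, which did not pass, had 91 to 203 counts in E93RNAi and 91 to 182 in Control. The part of these shifts in the receptor falls was not tested.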

How the data were processed

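RNA of whole antennae was poly(A)-selected and sequenced from strand-preserving libraries made from 100 ng of total RNA, per the labels' protocols. The submitters' processing notes name cutadapt 1.8, STAR 2.5.3a, HTSeq 0.9.1 and the build BDGP6. The authors deposited raw read counts per gene, with 5 summary lines for unassigned reads, which were left out here and held 13.1 to 13.8% of the listed reads. Symbols came from a table of FlyBase identifiers, and positions and exon lengths from Ensembl release 115 (BDGP6.54), matched on identifier. The annotation release behind the counts is not given in the sources used here.

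Genes kept by filterByExpr (9237) were scaled by TMM and tested with edgeR 4.0.16 (quasi-likelihood, group only, all 6 samples; limma 3.58.1, R 4.3.3). An adjusted p (Benjamini-Hochberg over all tested genes) under 0.05 counted as called. SE came from the F statistic. CPM are TMM-scaled. Ratios of summed counts carry exact Clopper-Pearson 95% intervals and cover counting error only, since reads without molecular identifiers are not independent molecules. The log2 ratio of 2 receptors used counts plus 0.5. Profile distances used log2 CPM with a prior count of 2 and genes averaging at least 20 counts. On simulated counts for 9237 genes of this comparison, edgeR recovered 108 of 110 genes changed by 1 on the log2 scale and 90 of 90 changed by 3, with 12 false calls.

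The members, the lists and the tests were chosen with earlier results of these data known. Named genes are the members, *Eip93F*, *Dcr-2*, *w* and *peb* as checks, the tested trichoid, intermediate and partner genes, called regulators, the 3 nearest genes on each side of each locus and the 5 nearest profiles. *Or85b*, *Or82a*, *Or7a*, *Or49b* and the genes of the largest falls and markers were named after their values were seen. *Dcr-2* had 4676 ± 258 CPM in E93RNAi and 4801 ± 260 CPM in Control, and *peb* had 186 ± 7.54 CPM in E93RNAi and 202 ± 15.2 CPM in Control (SD, n = 3 each). The labels call the replicates biological. Alternatives were other scalings (DESeq2 size factors, library totals, upper quartile), DESeq2 1.42.0, limma voom, other filters, the replicate block, each sample left out, and the *Or65* genes summed.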

Additional observations from a re-analysis of the deposited data

How the results depend on the processing

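All 5 at4 receptors stayed lower and past the threshold in every alternative run. Among the 8 alternatives that kept all samples and gene rows, the log2 fold change was -6.86 to -6.81 for *Or47b* and -1.52 to -1.49 for *Or88a*. With single samples left out, the values were -7.02 to -6.72 for *Or47b*, -9.54 to -8.02 for *Or65a*, -8.42 to -7.17 for *Or65b*, -11.05 to -7.86 for *Or65c* and -1.60 to -1.45 for *Or88a*. Where an arm was left with 2 samples, the spread was pooled over the remaining 5. The count of called genes, 2248, was 2430 with the replicate block, 1906 with DESeq2 and 1711 to 2155 with a sample left out. The block gave *Or47b* -6.84 and *Or88a* -1.51 and changed no at4 call. The protocol speaks of rearing pairs without saying that the numbers mark them. Same-numbered samples had correlated deviations from their group means (0.172, 0.0450 and 0.137 for numbers 1 to 3), and 4 of 6 samples correlated best with their own number. The share of at4 receptors in Or reads differed by -9.58 percentage points (E93RNAi minus Control), and by -3.82 with *Orco* in the denominator, which adds its reads to the total. At this depth, with 2 to 17 summed counts per gene in E93RNAi, the *Or65* genes could not be ranked by the size of their fall.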

Other observations

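*nompA*, the neighbour of *Or47b*, was not the only mechanosensory gene to rise. *nompC*, a mechanotransduction channel gene from the fixed list for Johnston's organ, had 897, 1011 and 836 counts in E93RNAi and 123, 129 and 160 counts in Control, and rose by 2.70 ± 0.10 in log2 units (SE; edgeR adjusted p = 1.55e-09). *iav*, a channel gene of auditory neurons from the same list, had 17, 20 and 30 counts in E93RNAi and 51, 24 and 20 counts in Control, and the groups overlapped (adjusted p = 0.355, edgeR). *btv*, a cilium motor gene of the list, was at -0.12 ± 0.061 (SE, adjusted p = 0.201, edgeR).

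Among basiconic receptors, *Or33b* went the opposite way to the at4 receptors, with 86, 123 and 101 counts in E93RNAi and 2, 0 and 1 counts in Control. In E93RNAi it thus had more reads than *Or47b* and the 3 *Or65* genes together.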
